A study of Rattus norvegicus with 145 samples.

Results

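Cerebral cortex of rats heterozygous for the Q130 knock-in (KI) of the huntingtin gene was compared with cortex of wild-type (WT) rats at 10 months of age. The libraries were chosen by their titles, and they are 20 of the 145 libraries of a study that profiled messenger RNA in striatum, cortex and cerebellum of this rat model of Huntington's disease. The KI group held 10 Long Evans rats, 5 females and 5 males, each with the Q130 allele on 1 chromosome and therefore still with an unmodified copy of the gene. The WT group held 10 rats of the same age, also 5 females and 5 males. Each library came from the cortex of a separate animal, so p-values measure the spread between animals, and the other regions and ages are used only for values set beside those of this cortex.

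In Huntington's disease a CAG repeat of the huntingtin gene is expanded, which lengthens a run of glutamines near the start of a large protein that takes part in vesicle transport, transcription and autophagy. The striatum is affected first and most, but neurons of the cortex, whose axons supply the striatum with glutamate and with neurotrophic factor, also degenerate. A knock-in places the repeat in the animal's own gene, so the mutant protein is made under the native promoter in every cell type that normally makes it. In bulk tissue a lower level can mean fewer cells of a type or less RNA per cell, and the libraries cannot tell these apart. The tables list Ensembl identifiers without gene symbols, so the huntingtin gene itself, cell type markers and pathways are not reported by name, and genes are described by identifier, by counts, and in groups defined by where they are expressed.

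In units of 1000000 estimated counts, depth per library was 30.5 to 37.8, with means of 34.9 ± 1.75 in KI and 33.6 ± 2.23 in WT libraries (SD, n = 10 each). Genes at or above 1 TPM numbered 13554 to 14037 in KI and 13448 to 13998 in WT libraries. The cortex label held in the data. The 210 genes that WT rats of 19 months expressed at least 4-fold higher in cortex than in striatum and cerebellum averaged 3.00 to 3.12 log2 CPM in KI and 2.97 to 3.12 in WT libraries, against -0.37 to 0.18 in KI and -0.45 to 0.28 in WT striatum of the same age. Some libraries stood apart by transcript length. In each library the deviation of each gene from its mean over libraries was regressed on effective transcript length, the ratio of CPM to TPM, and the slope (log2 CPM per doubling of length) was at most -0.036 in 5 libraries, KI F1 and M5 and WT F1, F3 and M3, and at least -0.0096 in the other 15. These 5 had the lowest scores on the first principal component, which held 27.5% of the variance, while the second, with 14.99%, separated the sexes. WT F3 also had the lowest mean Spearman correlation with the other libraries, 0.976 where the others had 0.989 to 0.993. The mean slope was 0.0115 ± 0.0510 in KI and -0.0115 ± 0.0649 in WT libraries (SD, n = 10 each; 2-sided permutation test with 100000 resamples, p = 0.400, the same after adjustment over 4 tests of library properties).

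With edgeR no gene differed between KI and WT cortex at an adjusted p under 0.05, while DESeq2 called 19, and most differences were small. Of 15211 genes tested with sex as a covariate, 0 passed (edgeR's quasi-likelihood test with Benjamini-Hochberg adjustment, 0% called), and the smallest adjusted p was 0.280. At an unadjusted p under 0.05 there were 1013 genes, 6.66% of those tested, of which 349 were higher in KI (2.29%) and 664 lower (4.37%). The 19 genes of DESeq2, run with its own size factors and no count filter, were 4 higher and 15 lower in KI, 0.116% of those with an adjusted p. Of these 19, 17 were tested by edgeR, where their unadjusted p was at most 0.00111. Without WT F3, 0 genes passed edgeR's threshold and 871 had an unadjusted p under 0.05, of which 555 were lower in KI, and without KI M5 there were 1928, of which 1206 were lower. Without WT F2, 2 identifiers passed, both lower in KI.

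The intervals show how large a difference these animals could have hidden. The median absolute log2 difference was 0.061, close to the median standard error of 0.070, and 95% of genes lay within 0.30 of 0. For 13575 genes, 89.7% of the 15129 with an interval, the whole 95% confidence interval lay within 1.5-fold of equality, and for 14811 genes, 97.9%, within 2-fold. Precision followed expression level: the median standard error was 0.188 for 2349 genes under a mean log2 CPM of 1, and 0.044 for 1439 genes at 7 or more, counting those with a standard error, which a difference too near 0 did not give. Only 37 genes (0.243%) had a difference past 2-fold, 13 higher and 24 lower in KI, and the smallest unadjusted p among them was 0.000595. Their median level was 1.105 log2 CPM.

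**Figure D1:**
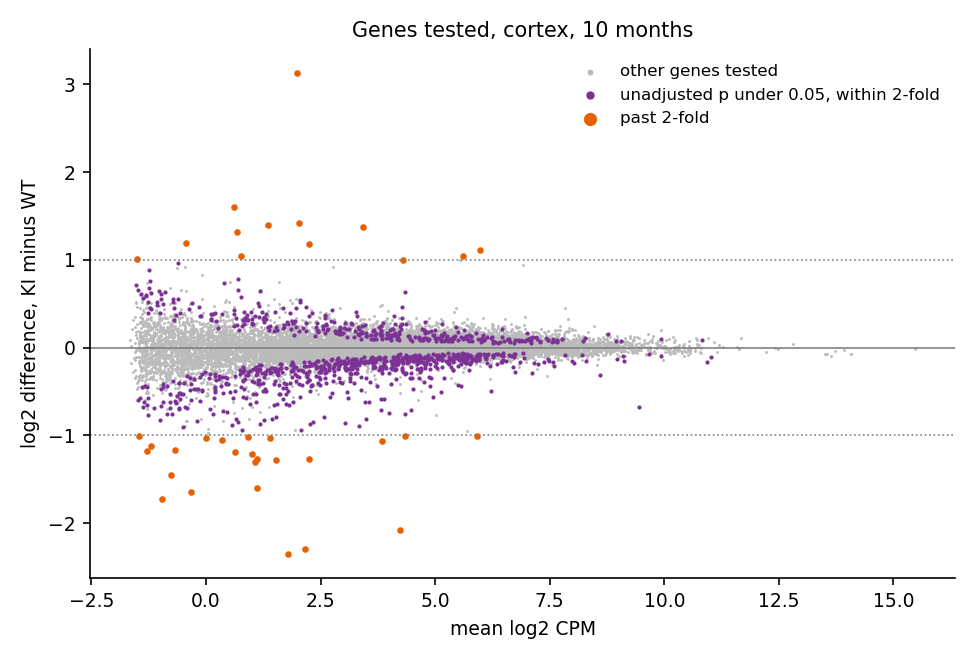
Each point is one of 15211 genes, with its mean level (log2 CPM) on the horizontal axis and its log2 difference, KI minus WT, on the vertical axis; dotted lines mark 2-fold. The cloud narrows with level, and the 37 genes past 2-fold have a median level of 1.105 log2 CPM.

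The genes with the smallest p that kept the same sign in both sexes had modest differences. ENSRNOG00000048194 had the lowest p among those below WT. Its level ran from 36.3 to 40.5 CPM in KI cortex, with a median of 38.3, and from 36.8 to 50.6 CPM in WT cortex, with a median of 47.1. All 10 KI libraries lay below the WT median and 8 WT libraries lay above the highest KI library, the WT females F2 and F4 being the exceptions. The log2 difference was -0.25 ± 0.049 (SE, 95% interval -0.36 to -0.15, edgeR adjusted p = 0.280), and DESeq2 called it (adjusted p = 0.00368). In males, KI libraries at 37.6 to 40.5 CPM lay wholly below WT libraries at 44.1 to 49.2 CPM, as did 0.592% of genes tested; in females KI libraries at 36.3 to 40.2 overlapped WT libraries at 36.8 to 50.6. A second identifier holds identical values in every library of the table, as do 35 sets of identifiers among the genes tested, so reads here cannot be assigned to 1 gene and a single signal is counted under both identifiers. These are the 2 identifiers that passed without WT F2, with an edgeR adjusted p of 0.0122.

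ENSRNOG00000038297 had the lowest p among genes above WT. Its level ran from 17.4 to 29.9 CPM in KI cortex, with a median of 21.8, and from 16.8 to 21.0 CPM in WT cortex, with a median of 18.1. The groups overlapped, with 6 of 10 KI libraries above the highest WT library. The log2 difference was 0.27 ± 0.062 (SE, 95% interval 0.14 to 0.40, edgeR adjusted p = 0.477), and DESeq2 called it (adjusted p = 0.0360). In males KI libraries at 22.0 to 29.9 CPM lay wholly above WT libraries at 17.9 to 21.0 CPM, as did 0.44% of genes tested, while in females KI libraries at 17.4 to 21.6 overlapped WT libraries at 16.8 to 19.9. The difference between the sexes in the KI effect, female minus male, was -0.21 ± 0.12 on the log2 scale (SE, edgeR adjusted p = 0.999).

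ENSRNOG00000001296 came next among genes above WT. It stood at 15.5 to 24.4 CPM in KI cortex, with a median of 22.4, and at 13.3 to 24.7 CPM in WT cortex, with a median of 16.9. The highest value belonged to WT M2, and 8 KI libraries lay above the next WT library, at 18.7 CPM. The log2 difference was 0.34 ± 0.089 (SE, 95% interval 0.15 to 0.52, edgeR adjusted p = 0.574; DESeq2 adjusted p = 0.139).

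**Figure D2:**
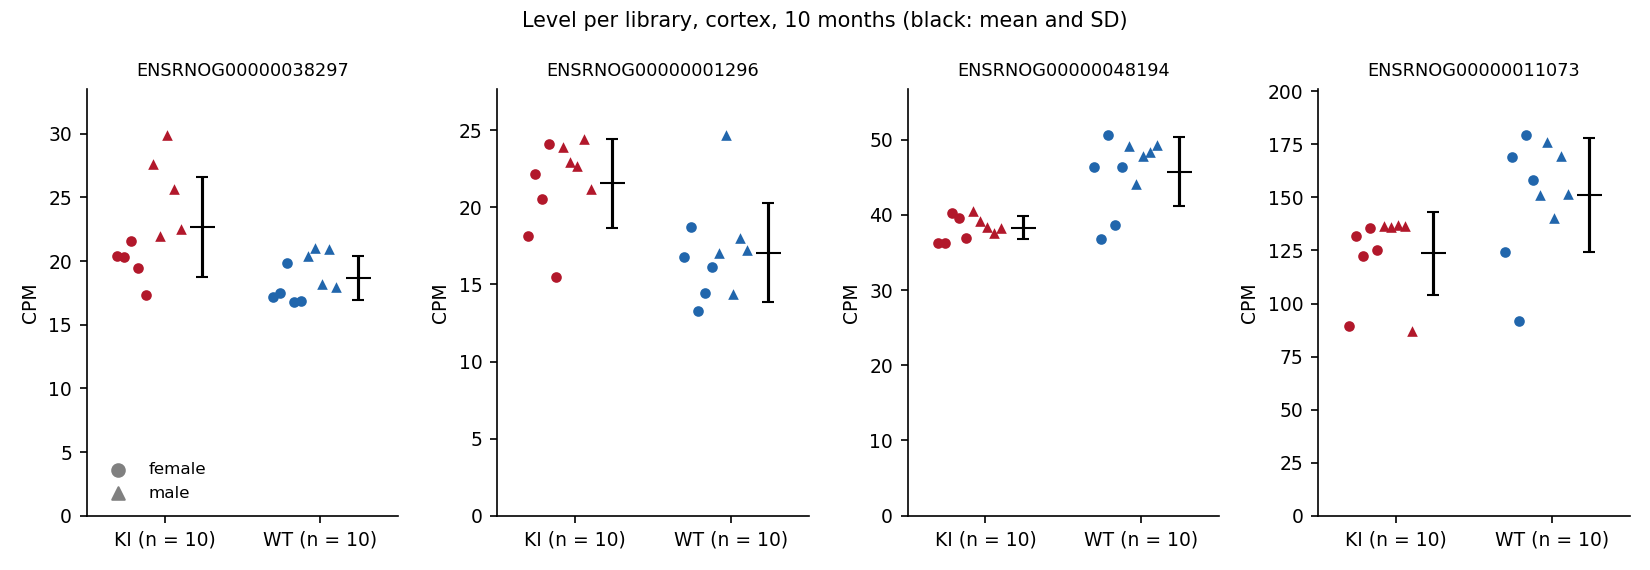
Level in CPM of 4 identifiers in each library, KI to the left of WT, with circles for females and triangles for males; black marks give the mean and SD of 10 libraries. In ENSRNOG00000048194 the KI libraries sit between 36.3 and 40.5 CPM, below 8 of the 10 WT libraries, and in ENSRNOG00000011073 the lowest 2 KI libraries and the lowest 2 WT libraries are all among those of low length slope.

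In these 20 libraries the log2 differences between genotypes followed transcript length. The library slopes themselves were not shown to differ by genotype (2-sided permutation test, p = 0.400). When the genes tested were split by length into 4 equal classes, the median log2 difference was -0.042 in the shortest, -0.022 in the second, -0.0021 in the third and 0.029 in the longest, with a Spearman correlation of 0.25 between log2 difference and effective length over 15211 genes, which share the same 20 libraries. In the shortest class 210 of 280 genes with an unadjusted p under 0.05 were lower in KI, and in the longest 81 of 176. Adding each library's length slope to the model takes out such a trend by construction, and the correlation was then 0.034 and the class medians ran from -0.0070 to 0.0014. The slope was computed from the expression of these genes in these libraries, unlike genotype and sex, so its association with them is partly built in. It was associated with 7926 of 15211 genes (edgeR, adjusted p under 0.05). Its median share of a gene's variance was 26.9%, and the labels of genotype and sex held 4.05% and 4.13%. Of the variance summed over genes the slope held 26.3%, genotype 6.57% and sex 14.0%. What sets the slope in a library was not tested.

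**Figure D3:**
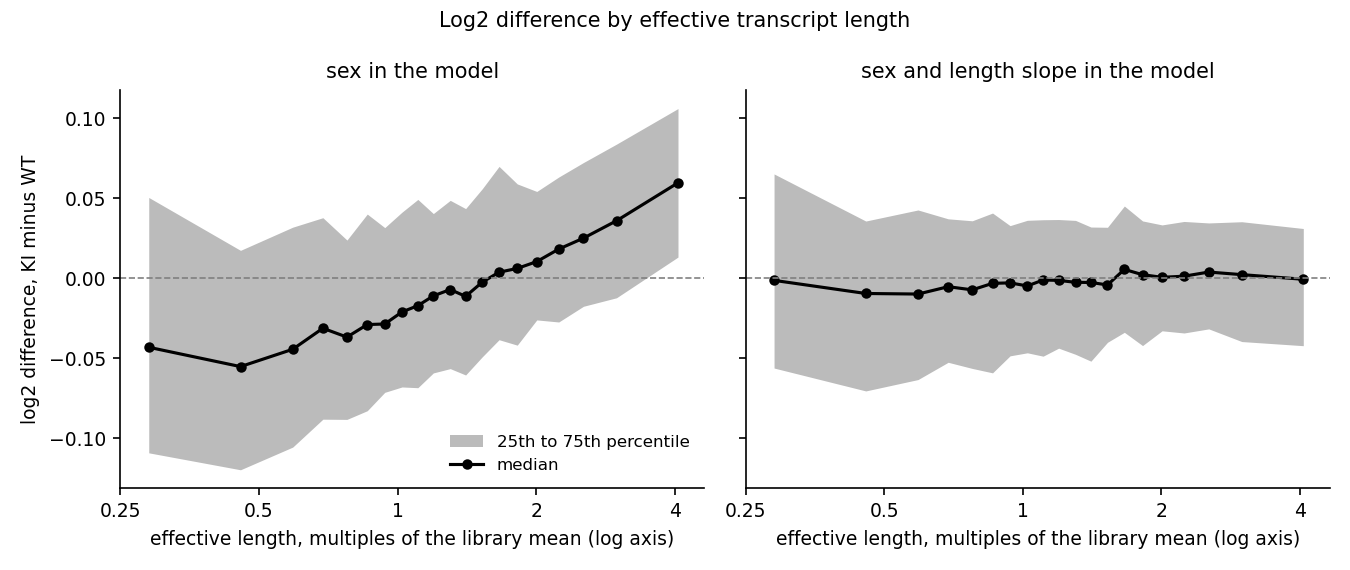
Median log2 difference, KI minus WT (black line) and 25th to 75th percentile (grey) in 20 bins of about 760 genes ordered by effective length, in multiples of the library mean, with sex in the model on the left and sex and length slope on the right. The medians climb with length on the left, from below 0 in short transcripts to 0.060 in the longest bin, and stay within 0.010 of 0 on the right, where the slope term removes the trend by construction.

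With the length slope as a covariate, 6 of 15211 identifiers passed (0.0394%), and all 6 were lower in KI (edgeR). At an unadjusted p under 0.05 there were 1241 genes (8.16%), 533 higher and 708 lower. The last 2 of the 6 are ENSRNOG00000048194 and its identical second identifier, with a log2 difference of -0.23 and a standard error of 0.043 (edgeR adjusted p = 0.0494), a call lost on leaving out any of 16 of the 20 libraries, where the adjusted p ran up to 0.187, and on keeping 1 row per set of identical rows, where it was 0.0591. A further 3 identifiers, not named here, had log2 differences of -0.34 ± 0.053, -0.27 ± 0.042 and -0.37 ± 0.068 (SE, edgeR adjusted p = 0.0105, 0.0110 and 0.0494). Their KI and WT means were 12.8 ± 1.77 and 15.6 ± 2.12 CPM for the first, 18.4 ± 2.21 and 21.1 ± 3.77 CPM for the next, and 4.75 ± 0.722 and 6.41 ± 1.02 CPM for the last (SD, n = 10 each). Leaving out 1 library at a time left 3 to 7 identifiers called, and the count was 3 without KI F1, F2, M1, M2, M4 or M5 and without WT F3, F5, M2, M3 or M5.

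The first of the 6, ENSRNOG00000011073, was chosen with its values in view. Its transcript is long, with an effective length above that of 99.8% of genes tested. In KI cortex it ran from 86.9 to 137 CPM, with a median of 134, and in WT cortex from 91.8 to 180 CPM, with a median of 155. All 10 KI libraries lay below the WT median. The lowest KI libraries were M5 at 86.9 and F1 at 89.2 CPM, the lowest WT libraries were F3 at 91.8 and F1 at 124 CPM, and all 4 are among the 5 of low slope. With sex as the one covariate the log2 difference was -0.29 ± 0.11 (SE, edgeR adjusted p = 0.647). With the length slope it fell by 0.39 ± 0.026 on the log2 scale, to 76.3% of WT (SE, 95% interval -0.44 to -0.34, edgeR adjusted p = 4.52e-09). Leaving out each library in turn kept this between -0.41 and -0.38, with an adjusted p of at most 1.03e-07.

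Without the 5 libraries of low slope, a choice made after the data were seen, the same gene stood at 122 to 137 CPM in 8 KI libraries and at 151 to 180 CPM in 7 WT libraries. The groups then did not overlap, as was so for 11 of 15211 genes, 4 with all KI libraries below WT (0.0263%) and 7 with all above (0.046%). In the 5 libraries left out ENSRNOG00000011073 stood at 86.9 and 89.2 CPM in KI M5 and F1. In WT F3, F1 and M3 it stood at 91.8, 124 and 140 CPM. The gene was chosen from a fit that held all of these libraries, so neither set is a separate check on it. Without those 5 libraries it was the single gene called in a fit of 15268 genes (log2 difference -0.32, edgeR adjusted p = 0.00510).

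**Figure D4:**
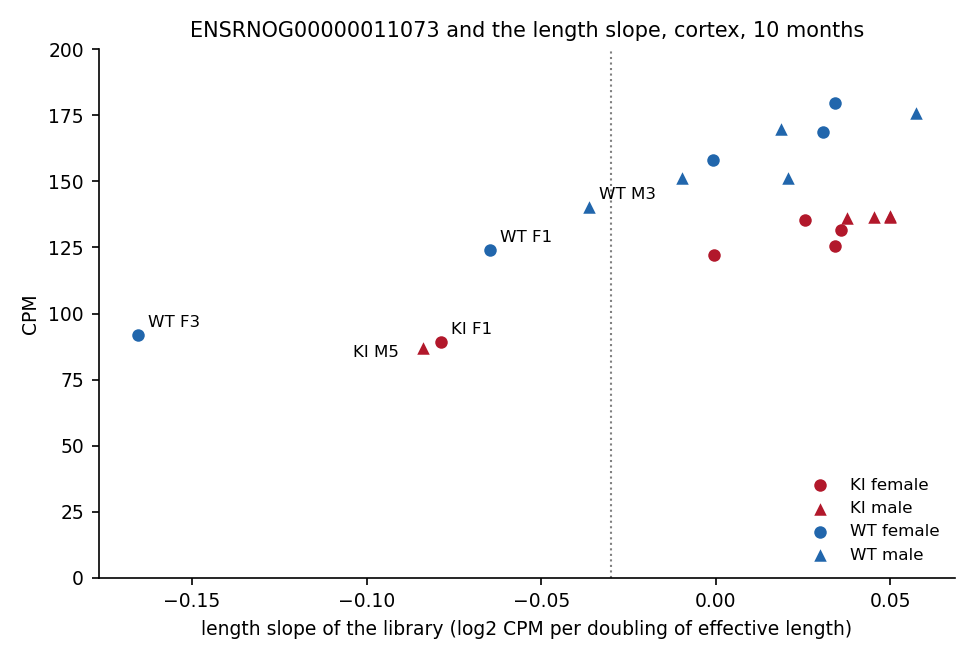
Level of ENSRNOG00000011073 (CPM) against the length slope of each library (log2 CPM per doubling of effective length), with KI in red, WT in blue, circles for females and triangles for males; the dotted line marks a slope of -0.03. The level climbs with slope in both genotypes, and to the right of the line KI libraries sit at 122 to 137 CPM and WT libraries at 151 to 180 CPM.

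The 4 identifiers were then followed to cortex of 19 and 24 months, striatum of 10 and 19 months and cerebellum of 19 and 24 months. Striatum of 2, 6 and 24 months was not looked at. ENSRNOG00000011073 was below WT in each region and age followed. Regions of the same age came from the same animals, so these fits are not all separate sets of animals. In cortex of 19 months it averaged 111 ± 13.9 CPM in KI rats and 139 ± 19.4 CPM in WT rats (SD, n = 10 each), and the log2 difference was -0.32 ± 0.082 (SE, edgeR adjusted p = 0.748). In cortex of 24 months it stood at 73.4 to 120 CPM in 7 KI and 145 to 164 CPM in 4 WT libraries, and the log2 difference was -0.71 ± 0.12 (SE, edgeR adjusted p = 0.765). With the length slope in the model it was called in cortex at both ages, as the single gene of each fit (0.00654% and 0.00648% of genes tested), with log2 differences of -0.44 ± 0.038 and -0.58 ± 0.046 (SE, edgeR adjusted p = 1.17e-06 and 0.000219). In striatum of the same 10-month animals its log2 difference was -0.46 ± 0.063 with sex as the one covariate (SE, edgeR adjusted p = 0.00655) and -0.41 ± 0.036 with the slope (SE, edgeR adjusted p = 1.31e-05), and in each fit it was the single gene called, 0.00654% of those tested. Tested within the 20 animals, with each animal as a block, the KI effect in cortex minus that in striatum was 0.18 ± 0.13 (SE, 95% interval -0.092 to 0.45, edgeR adjusted p = 0.736). With the slope added it was 0.019 ± 0.042 (SE, 95% interval -0.068 to 0.11, edgeR adjusted p = 0.988). Its KI effect in cortex at 24 months minus that at 10 months was -0.43 ± 0.17 (SE, 95% interval -0.78 to -0.086, edgeR adjusted p = 0.381), and -0.18 ± 0.058 with the slope (SE, 95% interval -0.29 to -0.061, edgeR adjusted p = 0.543). At 19 minus 10 months it was -0.035 ± 0.14, and -0.059 ± 0.046 with the slope (SE, edgeR adjusted p = 0.9999 and 0.999).

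With sex as the one covariate, 2 of the other identifiers had the opposite sign in cortex of later ages, without a test of the change in effect that passed. The identifiers named by rule were picked for a small p at 10 months, and the tests of change reuse the 10-month values. A smaller or reversed value at another age can follow from that choice alone. ENSRNOG00000048194 had log2 differences of 0.077 ± 0.067 at 19 and 0.067 ± 0.091 at 24 months (-0.0086 with the slope), and its KI effect at 19 months minus that at 10 months was 0.33 ± 0.092 (SE, edgeR adjusted p = 0.953). ENSRNOG00000038297 had -0.071 ± 0.057 and -0.13 ± 0.13 at those ages, and the same test gave -0.35 ± 0.10 (SE, edgeR adjusted p = 0.953). In striatum of the same 10-month animals its log2 difference was 0.54 ± 0.11, at 7.81 to 18.4 CPM in KI and 6.501 to 10.3 CPM in WT libraries (SE, edgeR adjusted p = 0.420). ENSRNOG00000001296 kept a positive value in cortex, 0.16 ± 0.10 at 19 and 0.075 ± 0.13 at 24 months (SE, edgeR adjusted p = 0.748 and 0.847).

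**Figure D5:**
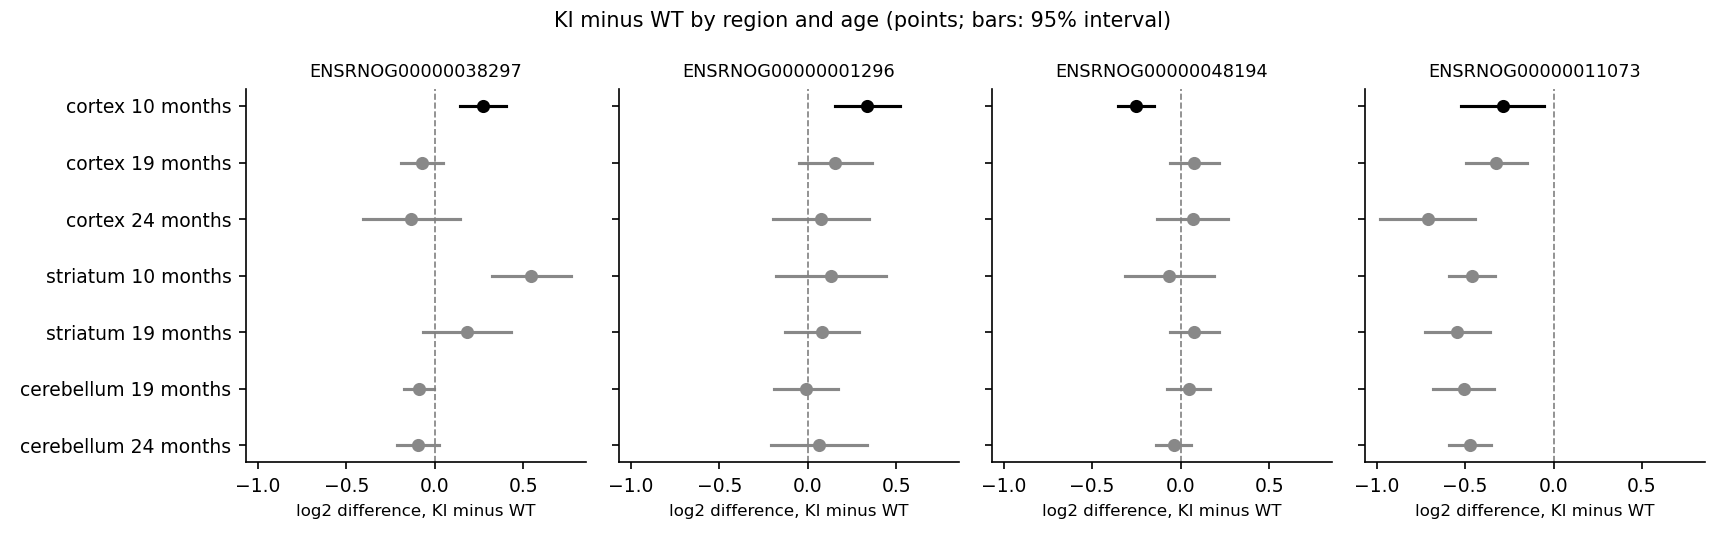
Log2 difference, KI minus WT (point) with its 95% confidence interval (bar) for 4 identifiers in 7 fits of 1 region and 1 age with sex in the model; cortex of 10 months is in black. ENSRNOG00000011073 lies to the left of 0 in all 7, and the other identifiers have intervals that cross 0 at 19 and 24 months in cortex. Fits of the same age share their animals, so the 7 are not separate sets of animals.

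Over all genes the KI effect in cortex was not shown to change with age or region. Between 19 and 10 months 0 of 16108 genes passed, 481 (2.99%) had an unadjusted p under 0.05, and DESeq2 called 1. Between 24 and 10 months 0 of 16108 passed, with a smallest edgeR adjusted p of 0.0995. There 2088 (12.96%) had an unadjusted p under 0.05, and DESeq2 called 6. Between cortex and striatum of the same animals 0 of 15840 passed, 1085 (6.85%) had an unadjusted p under 0.05, and DESeq2 called 0. With the slope in the model 0 passed in each. The counts at an unadjusted p under 0.05 were then 731 (4.54%), 1036 (6.43%) and 901 (5.69%) in the same order. The 3 ages of cortex come from different animals. Of 1001 genes with an unadjusted p under 0.05 at 10 months that were also tested at 19 months, 743 (74.2%) had the same sign there, and of 1009 also tested at 24 months 249 (24.7%) did. Over all genes in both fits these shares were 69.1% and 30.1%. The log2 differences had a Spearman correlation with effective length of 0.28 at 19 months and -0.31 at 24 months, over 15280 and 15437 genes. With the slope in each model, which takes out a length trend by construction, the shares were 59.4% of 1233 and 43.2% of 1237 genes. Over all genes they were 52.5% and 48.2%. Whether transcript length accounts for these shares was not tested.

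The genotype effect was not shown to differ between females and males. For the interaction of sex and genotype 0 of 15211 genes passed with edgeR, 760 (5%) had an unadjusted p under 0.05, and DESeq2 called 21. Fitted alone, females gave 690 and males 949 genes at an unadjusted p under 0.05, and 0 called in either sex. The same 20 libraries did separate the sexes. Between females and males 188 genes were called (1.24%), 72 higher and 116 lower in females, and with the length slope in the model there were 890.

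Genes enriched in a region, and genes that differed in KI cerebellum, were described next. With sex in the model 0 of all 15211 genes tested were called in this cortex, so 0 of these groups' genes could be. Of the 210 cortex-enriched genes, 4 were higher and 6 lower in KI at an unadjusted p under 0.05, which is 4.76% beside 6.66% of all genes, and their median log2 difference was 0.030 beside -0.0062. Of 277 striatum-enriched genes 192 were tested in cortex, with 5 higher and 8 lower (6.77%) and a median of -0.053. Of 342 cerebellum-enriched genes 230 were tested, with 7 higher and 13 lower (8.70%) and a median of -0.016, a sign that turned to 0.022 when groups were taken at 2-fold in place of 4-fold. Per library the striatum-enriched genes averaged -0.075 to 0.11 log2 CPM in KI and -0.043 to 0.23 in WT cortex. In KI cerebellum of 19 months, where 352 genes were called (2.33%), 158 rose and 194 fell. Of the 150 risers tested in this cortex 3 were higher and 6 lower at an unadjusted p under 0.05 (6%), with a median log2 difference of -0.0070. Of 182 fallers 0 were higher and 11 lower (6.04%), with a median of -0.022. Over all genes 2.29% were higher and 4.37% lower. The totals of 6% and 6.04% lay near the 6.66% of all genes, but the 11 fallers were all lower. Of the fallers 39.0% had a log2 difference above 0, beside 46% of the risers and 47.1% of all genes. With the length slope in the model these were 35.7%, 48.7% and 48.6%. For the fallers of 24 months, given next, the value was 45% in both models. Whether the split of the fallers differs from that of all genes was not tested. For the 334 genes called in cerebellum at 24 months (2.17%), 1 of 183 risers was higher and 5 lower (3.28%), and 2 of 140 fallers were higher and 6 lower (5.71%), with medians of 0.0084 and -0.0071. With the length slope in the model 1 of the fallers was called in cortex, beside 0.0394% of all genes: ENSRNOG00000011073, which is in the lists of both ages.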

How the data were processed

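Messenger RNA libraries of 145 rat brain samples were given as 2 deposited tables, of which the 20 cortex libraries of 10 months are the subject here. Per the labels' protocols, RNA came from snap-frozen tissue through a Qiagen kit and a Bioanalyzer quality check, and Illumina libraries were prepared from it. The authors' first table holds estimated counts for 32883 Ensembl identifiers (8.12% of values not whole), which were rounded here; the design had assumed whole counts. The authors' second table is named FPKM, but each library sums to 1000000, so its deposited values are on the TPM scale. Per the file headers the reference is Rat.B6.0. Aligner, counter and annotation: not given in the sources used here. Every column was matched to a sample by the animal and region in its name, leaving 0 unmatched.

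Genes were tested with edgeR 4.0.16 in R 4.3.3 (TMM, filterByExpr by genotype, robust quasi-likelihood F test, sex as a covariate), with a Benjamini-Hochberg threshold of 0.05. Levels are CPM with the TMM factors of 1 region and age, and log2 CPM uses a prior count of 2. Region-enriched genes were taken in WT libraries of 19 months. Age effects were differences of differences over all 51 cortex libraries, and cortex against striatum was tested within animals, each animal being a block. Alternatives were RLE size factors, DESeq2 1.42.0, limma 3.58.1 (voom with quality weights, and limma-trend on log2 TPM with a pseudocount of 0.1 or 1), other count filters, a replicate block, leaving out the sex term, females or males alone, the length slope as a covariate, and leaving out each library. Fits were also run on simulated counts, where a length trend was planted with the same library slopes that served as covariate. The outcome is not reported here. A library counts as outlying when its mean Spearman correlation is over 5 scaled median absolute deviations under the median.

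The RefSeq gene table matched 0 of the 32883 identifiers, so the gene lists, cell type markers and huntingtin could not be picked out by name and no sequence is printed. These genes may be among the identifiers tested, the named ones included. Named identifiers are, by rule, the first 2 higher and the first 2 lower in KI by p among genes that average log2 CPM 1 or more and whose sign is shared by females and males; of the lower pair, with identical values, 1 is named, and ENSRNOG00000011073 was added. The comparison, lists and added settings were chosen with earlier results of these data known.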

Additional observations from a re-analysis of the deposited data

Results flagged for a closer look

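In ENSRNOG00000001296, WT M2 stood at 24.7 CPM, apart from the other WT libraries, the nearest of which was at 18.7 CPM. The mean Spearman correlation of WT F3 with the other 19 libraries was 0.976, where the next lowest WT library had 0.990. These are 2 of 22 groups of libraries examined for a library far from the rest, and chance flags about 1 in 20.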

How the results depend on the processing

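The count of 0 genes called between KI and WT held with RLE factors, voom, either limma-trend pseudocount, other filters, no sex term, each sex alone, all 51 cortex libraries in 1 fit, 1 row per set of identical rows, and without WT F3. It was 19 with DESeq2, 6 with the length slope, 1 without the 5 libraries of low slope, and 0 to 2 without each library in turn. With the length slope it was 3 without WT F3, 3 with 1 row per set of identical rows, 24 with DESeq2, and 3 to 7 without each library. The 1013 genes at an unadjusted p under 0.05 became 1928 without KI M5, 2140 with voom and 1673 without the 5 libraries of low slope. The share of them lower in KI was 54.4% with voom and 52.6% without those 5. DESeq2 called 21 genes for sex by genotype, 1 for the KI effect at 19 minus 10 months and 6 at 24 minus 10 months, where edgeR called 0. Between the sexes 188 genes became 462 with DESeq2, 122 without a count filter and 890 with the length slope. Why counts moved with the setting was not tested. The named identifiers kept their sign in every setting run. For those named by rule this was fixed in advance in females alone and in males alone, since the rule asked for the same sign in both.

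Replicate numbers are not stated to mark shared litters or days. With the replicate block 0 genes were called and 1244 had an unadjusted p under 0.05, and with the length slope as well 2 were called. Deviations of same-numbered libraries correlated by -0.12 to 0.32, over 0.1 in 4 of 10 pairs, and 2 pairs matched best with their own number. The huntingtin and gene list alternatives were not run. Standard errors were largest in genes of low level, the part of depth in this was not tested, and totals are estimated counts. The 2088 genes at an unadjusted p under 0.05 for 24 minus 10 months became 1036 with the length slope.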

Other observations

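The share of genes with an unadjusted p under 0.05 between KI and WT cortex varied with expression level. It was 7.84% under a mean log2 CPM of 1, 9.45% from 1 to 3, 7.05% from 3 to 5, 4.79% from 5 to 7 and 3.53% at 7 or more, and the share of genes below WT was 53.7%, 56.5%, 54.3%, 50.2% and 48.4% in the same order. In units of 1000000 estimated counts, female libraries held 32.9 ± 1.72 and male libraries 35.6 ± 1.48 (SD, n = 10 each; 2-sided permutation test with 100000 resamples, p = 0.0026, adjusted over 4 tests p = 0.0104).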
